A study of Mus musculus with 6 samples.

Results

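The genes described here are 10 transcription factor genes of the Fos, Jun and Egr families (Fos, Fosb, Fosl2, Jun, Junb, Jund, Egr1, Egr2, Egr3 and Egr4), out of 16663 genes measured in the female mouse hypothalamus. They were chosen with earlier results of these data known, and were taken by gene symbol from the array annotation. Each gene had 1 probeset (the group of probes read together as 1 transcript) that the annotation gave to it alone, and all 10 passed the filter on low signal. RNA was measured on 6 Affymetrix Mouse Gene 1.0 ST arrays. The CGP group, with 3 arrays, was the female offspring of C57Bl/6J mothers that were given CGP 39551, a competitive antagonist of the NMDA-type glutamate receptor, at 5 mg/kg by mouth throughout pregnancy and until weaning ended. The CON group, also with 3 arrays, was age-matched female C57Bl/6J offspring labelled as control, and the labels do not say whether their mothers received a vehicle. All mice were 21 weeks old when the tissue was taken, long after the drug had been stopped, and the labels describe RNA pooled from 18 mice. The labels name hypothalamus as the source of the RNA, although the treatment note speaks of adrenal glands. The hypothalamic neuropeptide genes Oxt, Hcrt and Pmch had mean log2 signals of 12.22, 12.54 and 11.93 in CGP and 12.16, 12.51 and 11.95 in CON, and adrenal markers were not looked at. Of 15 hypothalamic markers tested, none passed, 5 had a higher and 10 a lower mean in CGP, and Cartpt, a neuropeptide gene, was the farthest at -0.24 (limma, adjusted p = 0.0696). In 5 of the 15, CGP lay wholly below CON and in 1 wholly above, beside 9.95% and 7.59% of all tested probesets. The mean log signal of the list did not overlap, at 9.954 to 9.996 in CGP and 10.001 to 10.055 in CON. Its summed linear signal overlapped, at 25866 to 26770 in CGP and 26128 to 27516 in CON. Whether the 3 arrays of each group were hybridised with RNA of separate pools is not in the labels. The p-values below therefore measure array-to-array spread, which is possibly technical, and how much of the variation among mice they hold is unknown.

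Fos and Jun proteins are basic leucine zipper factors that pair with each other to form AP-1, which binds DNA at the AP-1 site and at the related cAMP response element (CRE). Jun proteins can also pair among themselves, whereas Fos proteins need a Jun partner. Egr proteins bind GC-rich sites through zinc fingers. Many of these genes are immediate early genes: their transcription starts within minutes of synaptic activity, calcium entry or growth factor signals and needs no new protein, and in the brain Fos and Egr1 are widely used as marks of recently active neurons. NMDA receptors are among the calcium channels that drive this response.

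Fos, Fosb and Egr1 were higher in CGP hypothalamus than in CON hypothalamus, by 0.38, 0.35 and 0.32 on the log2 scale, which is 1.30-, 1.27- and 1.25-fold. No member was lower in CGP by the test, and the other 7 did not pass it. All 10 had a higher mean in CGP, with differences from 0.03 for Egr3 to 0.38 for Fos and a median of 0.15, beside a median of -0.0031 over all 18239 tested probesets. The test was limma over all tested probesets with Benjamini-Hochberg adjustment, and rose or fell means an adjusted p under 0.05. By it, 3 of the 10 genes rose, against 28 of all probesets (0.154%), and none of the 10 fell, against 23 (0.126%). Because the 10 were chosen with earlier results of these data known, these shares are a description and no test of the families. With each array centred on its median, the split over all probesets was 37 higher and 18 lower. In either direction 51 probesets, or 0.280%, were called. With any 1 of the 6 arrays left out, none of the 3 genes passed the adjusted p, although each kept its direction and most of its size.

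The stretches of genome just before the starts of 4 of these genes are given first, since 2 of the genes rose (Fos and Fosb) and 2 did not pass (Jun and Junb), and since promoter elements such as the CRE are what these genes are known to be switched on through. Each is the 250 bases before the annotated start, from RefSeq on build GRCm38.p6, written along the gene's strand. Capitals mark matches, on either strand, to the motifs named after the sequences. Fos lies on the plus strand at chr12:85473640-85473889, Fosb on the minus strand at chr7:19310046-19310295, Jun on the minus strand at chr4:95052223-95052472 and Junb on the minus strand at chr8:84978749-84978998.
Fos: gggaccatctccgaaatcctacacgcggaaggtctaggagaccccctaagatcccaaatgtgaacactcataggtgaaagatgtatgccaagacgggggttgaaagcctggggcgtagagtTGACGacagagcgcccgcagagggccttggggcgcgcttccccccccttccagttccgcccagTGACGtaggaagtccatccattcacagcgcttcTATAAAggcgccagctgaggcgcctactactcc
Fosb: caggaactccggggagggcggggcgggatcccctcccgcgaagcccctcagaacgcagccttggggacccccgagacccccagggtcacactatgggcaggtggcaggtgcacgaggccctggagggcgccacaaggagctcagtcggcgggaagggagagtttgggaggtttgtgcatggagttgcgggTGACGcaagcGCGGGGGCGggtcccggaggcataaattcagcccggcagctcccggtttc
Jun: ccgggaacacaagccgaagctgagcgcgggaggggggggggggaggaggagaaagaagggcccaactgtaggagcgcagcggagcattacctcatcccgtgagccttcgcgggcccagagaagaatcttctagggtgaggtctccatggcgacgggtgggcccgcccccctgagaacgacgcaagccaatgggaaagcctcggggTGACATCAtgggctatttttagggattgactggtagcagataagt
Junb: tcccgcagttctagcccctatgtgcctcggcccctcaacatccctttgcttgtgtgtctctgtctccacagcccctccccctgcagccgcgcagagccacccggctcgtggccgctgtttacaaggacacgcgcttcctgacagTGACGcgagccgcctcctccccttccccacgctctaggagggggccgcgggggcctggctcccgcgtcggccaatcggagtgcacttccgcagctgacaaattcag

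The motifs searched were TGACG (the core of the CRE), TGACGTCA (the full CRE, which contains that core), TGACTCA (the AP-1 site), TGACATCA (the AP-1-like site known from the Jun promoter), the CArG box bound by serum response factor, GCGGGGGCG and GCGTGGGCG (Egr sites) and TATAAA (the TATA box). Promoters of 8 members were matched in the RefSeq table, which holds 32851 start sites, 5 of them for Egr2. Egr1 and Egr3 were not matched and so not searched. In the Fos promoter, TGACG stood at -129 to -125 and again at -66 to -62, counted from the start, with TATAAA at -33 to -28. The Fosb promoter held TGACG at -60 to -56 and the Egr site GCGGGGGCG at -50 to -42. The Jun promoter held TGACATCA at -45 to -38, and the Junb promoter TGACG at -106 to -102. Among the 8, TGACG was found before Fos and Fosb, which rose, and also before Junb, Egr2 and Egr4, which did not pass, and in 17.8% of all start sites. GCGGGGGCG was in 2.57% of start sites, and besides Fosb in Fosl2. TGACATCA was in 2.93% and TATAAA in 12.4%, each in no other member than the one named. The CArG box was in 1.47% of start sites and, within this window, before Egr2 alone of the 8, at 4 of its 5 starts. Sequence farther from the starts was not searched. TGACGTCA (1.55%), TGACTCA (4.46%) and GCGTGGGCG (0.536%) were found in none of the 8 within this window. These matches are letters in a window of 250 bases and say nothing about binding.

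**Figure D1:**
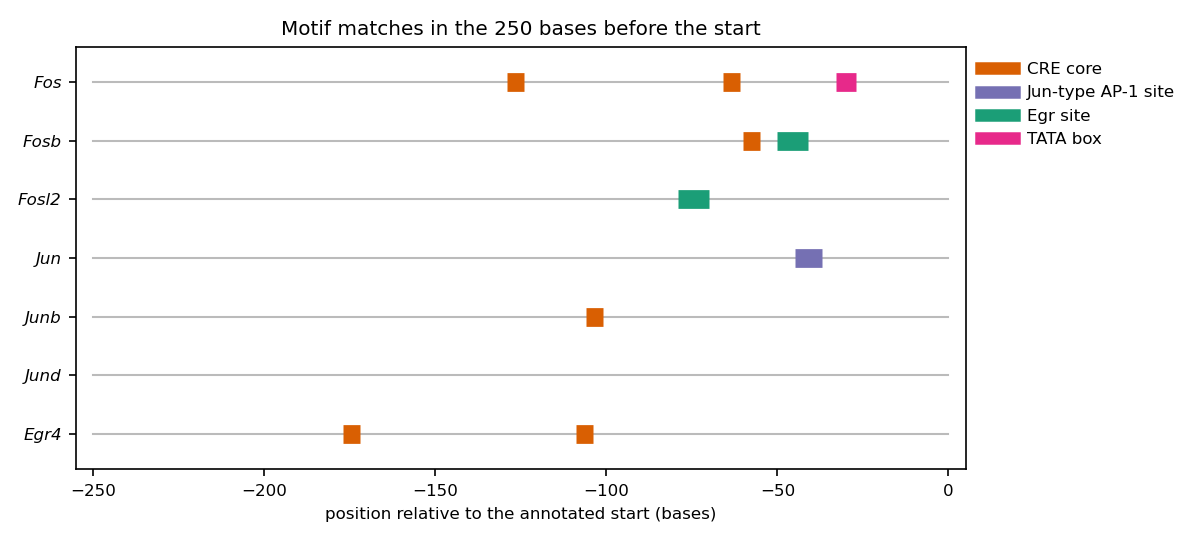
Motif matches before the starts of 7 genes, with position relative to the annotated start in bases on the horizontal axis and a coloured block for each match. The CRE core TGACG stands before Fos (2 matches), Fosb, Junb and Egr4 (2 matches), the Egr site before Fosb and Fosl2, and Jund has none of the motifs.

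The Fos family contributes the partners of Jun in AP-1. Fos, the c-Fos gene, had log2 signals of 8.84, 8.72 and 8.79 on the CGP arrays and 8.51, 8.32 and 8.40 on the CON arrays. All CGP arrays lay above all CON arrays, with CON replicate 2 the lowest. The group means were 8.78 ± 0.057 in CGP and 8.41 ± 0.094 in CON (SD, n = 3 arrays each), a difference of 0.38 with a standard error of 0.055 and a 95% interval of 0.25 to 0.50 (limma, adjusted p = 0.0484). The adjusted p stood just under the threshold. Fosb encodes FosB and the shorter, long-lived ΔFosB, which the probeset does not tell apart. Its signals were 8.55, 8.51 and 8.49 on the CGP arrays and 8.13, 8.20 and 8.17 on the CON arrays. The gap of 0.28 between the lowest CGP array and the highest CON array was several times the range within either group, 0.064 in CGP and 0.076 in CON. The difference was 0.35 with a standard error of 0.038 and a 95% interval of 0.26 to 0.44 (limma, adjusted p = 0.0185).

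Fosl2 encodes Fra-2, a Fos protein that lacks the strong activation domain of c-Fos. Its signals were 8.52, 8.57 and 8.60 on the CGP arrays and 8.37, 8.56 and 8.52 on the CON arrays, so that the groups overlapped. The difference was 0.08 with a 95% interval of -0.05 to 0.20 (limma, adjusted p = 0.643).

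Jun, Junb and Jund encode the partners of the Fos proteins. Jun, the c-Jun gene, had signals of 8.97, 8.93 and 8.94 on the CGP arrays and 8.86, 8.92 and 8.90 on the CON arrays. The CGP arrays lay above the CON arrays, but by a gap of only 0.0049, and the difference was 0.05 with a 95% interval of -0.03 to 0.13 (limma, adjusted p = 0.643). Junb encodes a Jun protein that is a weaker activator than c-Jun. Its signals were 8.17, 8.39 and 8.20 on the CGP arrays and 7.98, 8.07 and 8.13 on the CON arrays. Here too the groups did not overlap, and CGP replicate 2 stood above the other CGP arrays. The difference of 0.20 had a standard error of 0.066 and a 95% interval of 0.05 to 0.35, and it did not pass (limma, adjusted p = 0.355). Jund, whose product is present in most cells without stimulation, had signals of 9.54, 9.60 and 9.41 on the CGP arrays and 9.49, 9.43 and 9.43 on the CON arrays. The lowest of the 6 arrays was a CGP array, replicate 3. The difference was 0.07 with a 95% interval of -0.05 to 0.19 (limma, adjusted p = 0.645).

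Egr1, also known as Zif268, was the member with the smallest spread. Its signals were 10.49, 10.51 and 10.48 on the CGP arrays and 10.16, 10.18 and 10.18 on the CON arrays. The gap between the groups was 0.30, while the range within a group was 0.034 in CGP and 0.022 in CON. The means were 10.49 ± 0.017 in CGP and 10.17 ± 0.012 in CON (SD, n = 3 arrays each), a difference of 0.32 with a standard error of 0.033 and a 95% interval of 0.25 to 0.40 (limma, adjusted p = 0.0165).

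Egr2, or Krox-20, is known for its part in myelination by Schwann cells and hindbrain patterning. Its signals were 7.19, 7.35 and 7.35 on the CGP arrays and 7.25, 7.12 and 7.11 on the CON arrays, and CON replicate 1 lay above CGP replicate 1. The difference was 0.14 with a 95% interval of 0.0015 to 0.27 (limma, adjusted p = 0.447). Egr3, which in lymphocytes and muscle spindles has roles of its own, had signals of 8.44, 8.43 and 8.64 on the CGP arrays and 8.43, 8.39 and 8.62 on the CON arrays. The arrays numbered 3 were high in both groups, and the groups nearly coincided. The difference was 0.03 with a 95% interval of -0.15 to 0.20 (limma, adjusted p = 0.926). It turned to -0.04 without CGP replicate 3 and to -0.02 without CON replicate 2. Egr4 had signals of 8.03, 8.07 and 8.04 on the CGP arrays and 7.98, 7.73 and 7.97 on the CON arrays. The groups did not overlap, and CON replicate 2 stood well below the other arrays. The difference was 0.15 with a 95% interval of 0.000052 to 0.31 (limma, adjusted p = 0.451), and without CON replicate 2 it was 0.07.

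**Figure D2:**
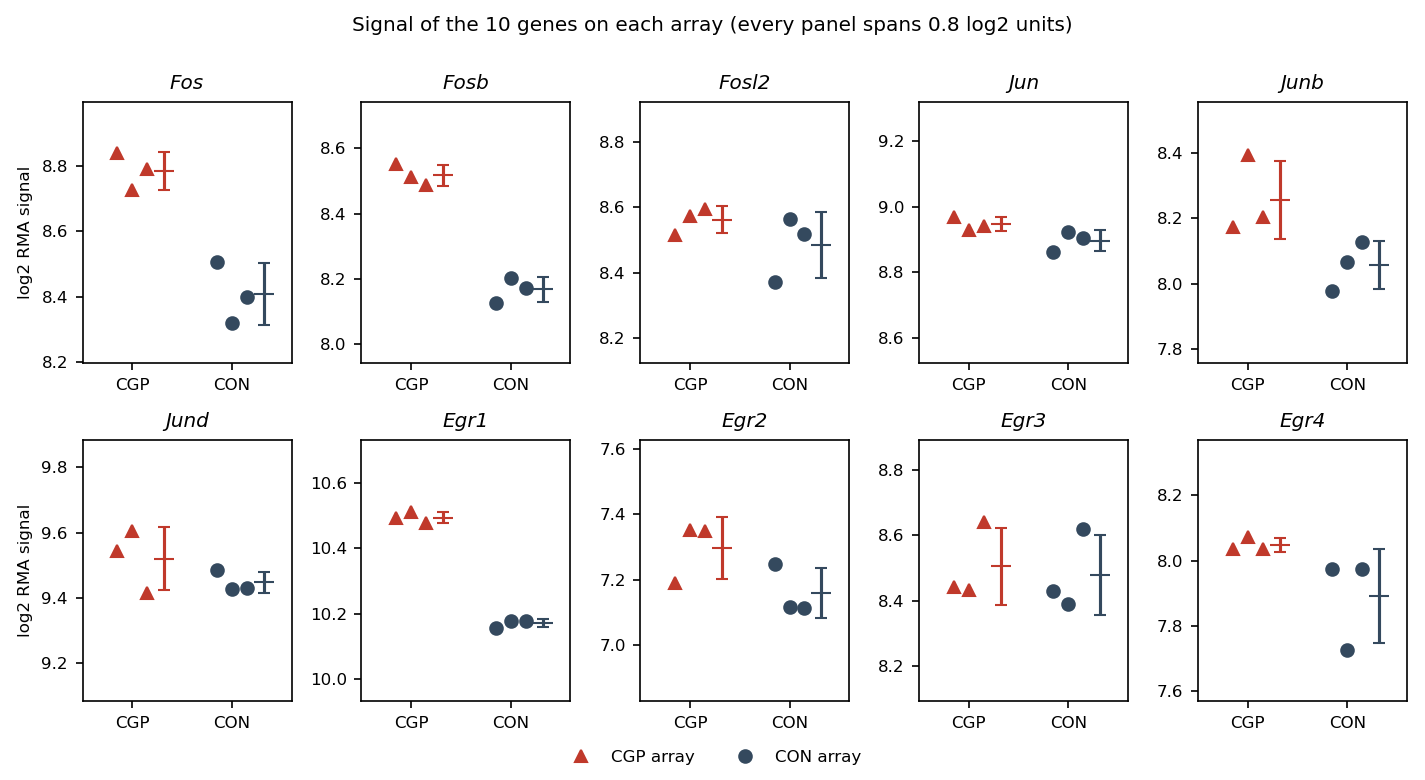
Log2 RMA signal of each gene on each array, CGP (triangles) left and CON (circles) right, with the mean and SD of the 3 arrays beside them. Every panel spans the same 0.8 log2 units. The groups lie wide apart for Fos, Fosb and Egr1, touch for Jun and overlap for Fosl2, Jund, Egr2 and Egr3.

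The lowest CGP signal exceeded the highest CON signal in 6 of the 10 genes (Fos, Fosb, Jun, Junb, Egr1 and Egr4), beside 1385 of all tested probesets (7.59%). The opposite order, CGP wholly below CON, was seen in none of the 10, beside 1814 of all tested probesets (9.95%). The same number, 6, had an unadjusted p under 0.05 in limma with a higher mean in CGP (Fos, Fosb, Junb, Egr1, Egr2 and Egr4), beside 958 of all probesets (5.25%). These shares too describe genes chosen with earlier results known and test nothing about the families. Among all 18239 differences in the upward direction, Fos ranked at place 12, Fosb at 19, Egr1 at 28, Junb at 194, Egr4 at 445 and Egr2 at 652. Fosl2, Jund, Jun and Egr3 ranked from 2375 to 5976.

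**Figure D3:**
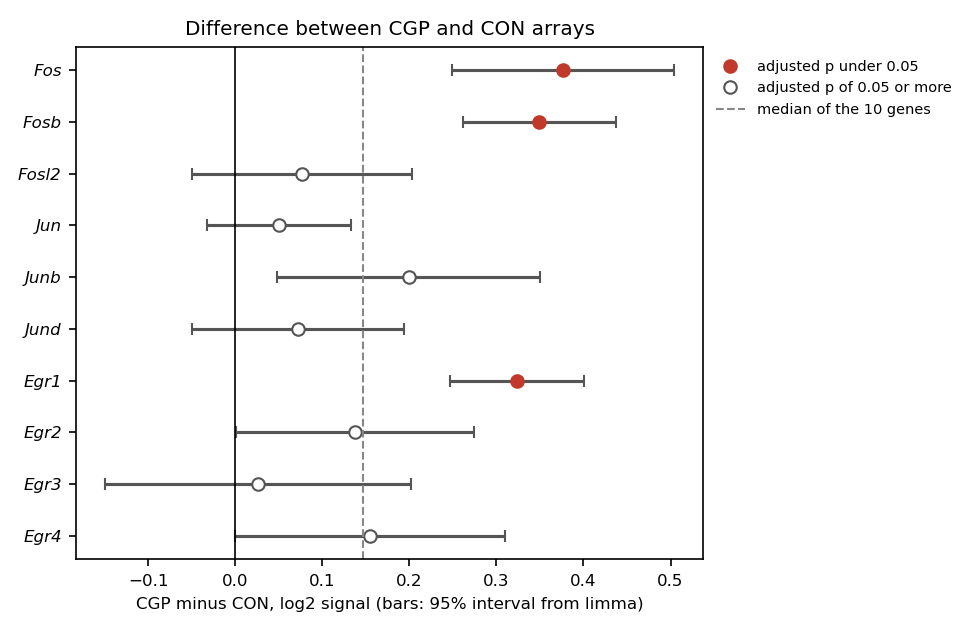
CGP minus CON difference in log2 signal for each gene, with 95% intervals from limma; filled points passed the adjusted p, open points did not, and the dashed line is the median of the 10 genes, 0.15. All points lie right of 0, and the intervals of Fos, Fosb and Egr1 lie farthest from it.

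To set the genes of a family against each other, the ratio of a pair of genes was taken on each array and compared between the groups for all 12 pairs within families. In 4 pairs the CGP and CON arrays did not overlap. The log2 ratio of Fos to Fosl2 was higher in CGP by 0.30, that of Fosb to Fosl2 by 0.27, that of Egr1 to Egr3 by 0.30 and that of Egr1 to Egr2 by 0.19. Each had a two-sided exact permutation p of 0.1, the smallest that 3 arrays against 3 can give, and 0.3 after Benjamini-Hochberg adjustment over the 12 pairs, so none can pass. The ratio of Fos to Fosb differed by 0.03 between the groups (exact permutation p = 0.8), with arrays between 0.21 and 0.30 in CGP and between 0.12 and 0.38 in CON. That of Jun to Jund differed by -0.02 (exact permutation p = 0.8).

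Averaged over the 10 genes, the deviation from each gene's own mean was 0.070, 0.11 and 0.089 on CGP replicates 1, 2 and 3 and -0.090, -0.11 and -0.061 on CON replicates 1, 2 and 3. No array was high or low for all members within its group. CGP replicate 2 had the highest CGP signal for 5 of the 10 genes and the lowest for 3, and CON replicate 2 had the highest CON signal for 4 and the lowest for 4. As a description over 6 arrays that fall into the groups compared, the correlation of a gene with the mean of the other members was 0.97 for Egr1, 0.93 for Fosb and 0.88 for Fos, and it was 0.14 for Egr3. The 5 genes outside the families whose signals followed the members' mean deviation most closely over the 6 arrays were Lhb, the β-subunit gene of luteinizing hormone (Pearson r = 0.992), Rasl11a, a Ras-like protein gene (0.990), Gng7, a G protein γ-subunit gene (0.989), Epcam, an epithelial adhesion gene (0.988), and Abca4, a transporter gene (0.987). Of 16653 genes, 322 (1.93%) had an r of at least 0.9. Lhb was at 9.95, 10.02 and 9.94 in CGP and 9.54, 9.39 and 9.60 in CON.

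Genes that act with the 10 or after them were read from lists, which were also chosen with earlier results known. Of 12 partner and related leucine zipper factors (Fosl1, Batf, Batf2, Batf3, Jdp2, Atf2, Atf3, Atf4, Atf7, Maff, Mafg and Mafk), none rose and none fell, and the median difference was 0.0056. The member with the largest difference was Batf2, at 0.07 (limma, adjusted p = 0.529), and Fosl1, the remaining Fos family gene, was at 6.90 ± 0.030 in CGP and 6.84 ± 0.083 in CON (SD, n = 3 arrays each). Of 21 upstream factors and kinases, among them serum response factor (Srf), its partners Elk1 and Elk4, and Creb1, the factor that binds the CRE, none passed, with a median of 0.017. Mef2a, an activity-regulated factor of neurons, had the largest difference, 0.13 (limma, adjusted p = 0.311). Srf was at 9.21 ± 0.025 in CGP and 9.17 ± 0.019 in CON, and Creb1 at 9.52 ± 0.074 in CGP and 9.59 ± 0.056 in CON (SD, n = 3 arrays each).

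Of 12 corepressors and feedback genes, 2 rose and none fell, with a median of 0.032. Dusp1, a phosphatase that switches off MAP kinases, was at 10.11, 10.15 and 10.10 in CGP and 9.85, 9.90 and 9.83 in CON, a difference of 0.26 (limma, adjusted p = 0.0441). Btg2, an antiproliferative gene that is itself induced early, was at 9.30, 9.16 and 9.20 in CGP and 8.90, 8.77 and 8.87 in CON, a difference of 0.37 (limma, adjusted p = 0.0419). The Egr corepressor genes Nab1 and Nab2 differed by -0.04 (adjusted p = 0.773) and -0.02 (adjusted p = 0.911) in limma and did not pass. With any 1 array left out, 0 of the 12 passed.

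Of 28 other activity-induced genes, 2 rose, none fell and 26 did not pass, with a median of 0.040. They were Nr4a1, an orphan nuclear receptor gene (9.99, 9.97 and 10.01 in CGP and 9.63, 9.65 and 9.65 in CON), and Npas4, a factor induced by calcium entry in neurons (8.24, 8.20 and 8.25 in CGP and 7.77, 7.80 and 7.93 in CON). Their differences were 0.34 (limma, adjusted p = 0.0121) and 0.40 (adjusted p = 0.0249). With 1 array left out, 0 or 1 of the 28 passed. Of the 28, 19 had a higher and 9 a lower mean in CGP. In 8 of them the CGP signals lay wholly above the CON signals and in 2 wholly below, beside 7.59% and 9.95% of all tested probesets. Arc, whose product acts at active synapses, was among the 8 and differed by 0.08 (limma, adjusted p = 0.513). Bdnf, whose groups overlapped, differed by 0.05 (limma, adjusted p = 0.752). Of 15 genes known as targets of AP-1 or Egr factors, none rose and 1 fell, with a median of 0.0064. The gene that fell was Timp1, an inhibitor of matrix metalloproteinases, at 7.07, 7.15 and 7.13 in CGP and 7.57, 7.61 and 7.63 in CON, a difference of -0.49 (limma, adjusted p = 0.00524). Timp1 also fell with each of the 6 arrays left out in turn. Of the 15, 9 had a higher and 6 a lower mean in CGP. Th, the tyrosine hydroxylase gene, lay wholly lower in CGP, by -0.25, and did not pass (limma, adjusted p = 0.0576). Cck lay wholly higher, by 0.15, and did not pass (limma, adjusted p = 0.288). The opioid precursor genes Pdyn and Penk, which AP-1 is known to act on, differed by 0.04 and 0.05 (adjusted p = 0.814 and 0.580 in limma) and did not pass.

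**Figure D4:**
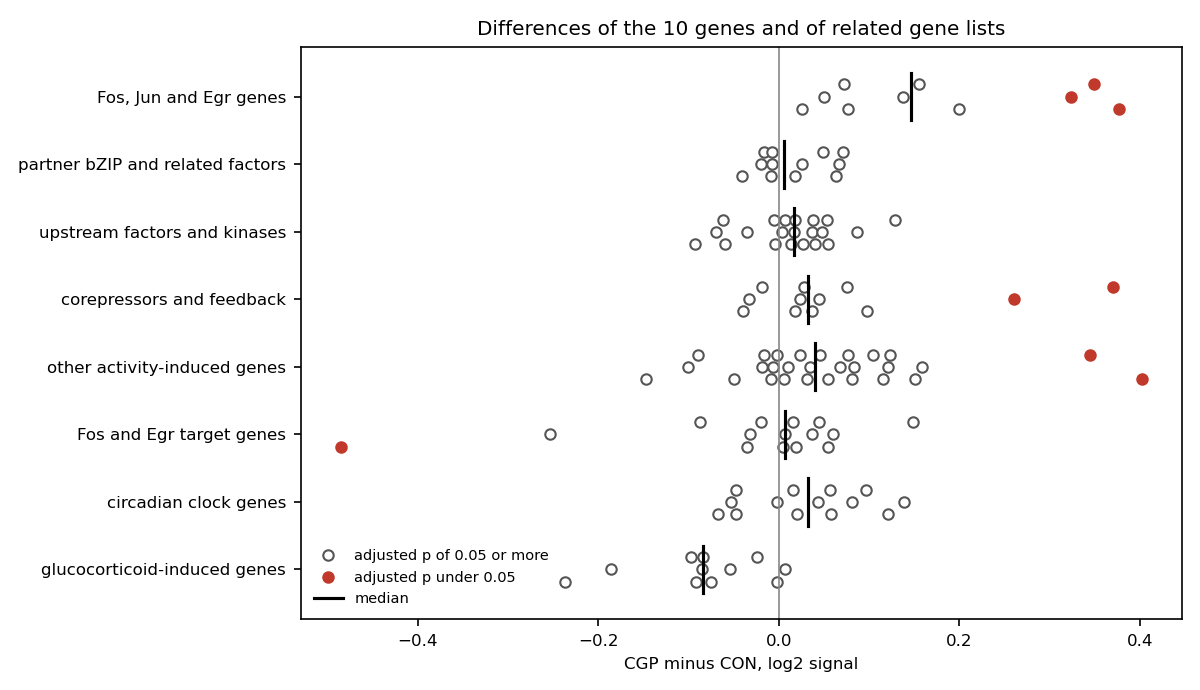
CGP minus CON difference in log2 signal for every tested gene of the families and of the related lists, with a bar at each list's median and filled points for genes that passed the adjusted p. Among the lists drawn, the 10 genes have the highest median, 0.15, and the glucocorticoid-induced list the lowest, -0.084. The marker lists of tissues and cell types are not drawn.

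Markers of neighbouring tissue differed between the same groups. The labels give pooled hypothalamic RNA, in which more cells of a type and more RNA per cell cannot be told apart. A summed signal is given beside each list, and the brightest probesets weigh most in it, such as Gh and Ttr in their lists. Of 8 anterior pituitary genes tested, 3 rose (Pomc by 1.56, Lhb by 0.46 and Gh by 0.39) and none fell. The other 5 did not pass, with differences of 0.34 for Tbx19, 0.15 for Fshb, 0.10 for Prl, 0.04 for Cga and -0.04 for Tshb. Pomc is also expressed by hypothalamic neurons, so it does not mark pituitary alone. The summed linear signal of the list was 29317 to 29966 in CGP and 23685 to 24623 in CON. Of 8 choroid plexus genes, 2 rose, Ttr by 0.84 and Slc4a5 by 0.40, and the sum was 8029 to 8211 in CGP and 4883 to 5179 in CON. Of 8 thalamus genes, 2 rose, Ptpn3 by 0.36 and Prkcd by 0.27, and the sum was 16643.5 to 16801 in CGP and 15032 to 15289.9 in CON. None of 6 habenula genes passed, all 6 had a higher mean in CGP, Chrnb4 by 0.37 (limma, adjusted p = 0.0582), and the sum was 4842 to 5031 in CGP and 4324 to 4462 in CON. The habenula list shares Nr4a2, which was higher by 0.15, with the list of other activity-induced genes. Of 10 genes of meninges and fibroblasts, 5 fell, Prg4 by 0.57 and Ogn by 0.44 among them, and the sum was 5796 to 6075 in CGP and 7103 to 7355 in CON. With 1 array left out, Pomc and Ttr passed each time as the 1 gene of their lists, with 0 thalamus genes, and 0 to 2 genes of meninges and fibroblasts, while the list medians kept their signs. With all 6 arrays, the median differences were 0.24 for anterior pituitary, 0.21 for choroid plexus, 0.20 for thalamus and 0.20 for habenula. These were above the 0.15 of the 10 genes, and the median for meninges and fibroblasts was -0.29. No marker with a probeset was below the signal filter. The part of these tissues in the differences of Fos, Fosb and Egr1 was not tested.

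Markers of the cell types within the tissue passed in no list. Those of neurons had a median difference of 0.00055 over 8 genes, with Nefm, a neurofilament gene, the farthest at -0.13 (limma, adjusted p = 0.412), and a summed signal of 40272 to 40682 in CGP and 40329.5 to 41010.4 in CON. The sums of oligodendrocyte markers, 20699.5 to 21133.5 in CGP and 21666 to 22276 in CON, and of microglial markers, 4096 to 4217 in CGP and 4298 to 4348 in CON, were lower in every CGP array than in every CON array. The medians of these lists were -0.062 and -0.083, and their farthest members were Mog (-0.14, adjusted p = 0.317 in limma) and Aif1 (-0.19, adjusted p = 0.238). The sums overlapped narrowly for astrocyte markers, at 14545.6 to 15221 in CGP and 15212 to 15502.5 in CON. The mean log signal of the astrocyte list did not overlap, at 10.63 to 10.70 in CGP and 10.72 to 10.74 in CON. Its median difference was -0.065, and 6 of its 7 genes had a lower and 1 a higher mean in CGP. For markers of endothelium and pericytes the sums overlapped too, at 4253 to 4493 in CGP and 4430.07 to 4539 in CON. The median of that list was -0.0087, and all 7 genes had a lower mean in CGP. The farthest members of the astrocyte and endothelial lists were S100b (-0.14, adjusted p = 0.271 in limma) and Cldn5 (-0.10, adjusted p = 0.618). Of 6 genes of other brain regions (striatum, cortex and hippocampus) none passed, with Rgs9 the farthest at 0.10 (limma, adjusted p = 0.389). In this list 5 genes had a higher and 1 a lower mean in CGP, with a median difference of 0.047. Its sum was higher in every CGP array than in every CON array, at 2883 to 2966 in CGP and 2782 to 2842 in CON. CGP replicate 1 stood apart from the other arrays on the second principal component of all tested probesets, at -9.67 against -0.013 to 4.78, and without it the differences of Fos, Fosb and Egr1 were 0.35, 0.33 and 0.32.

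**Figure D5:**
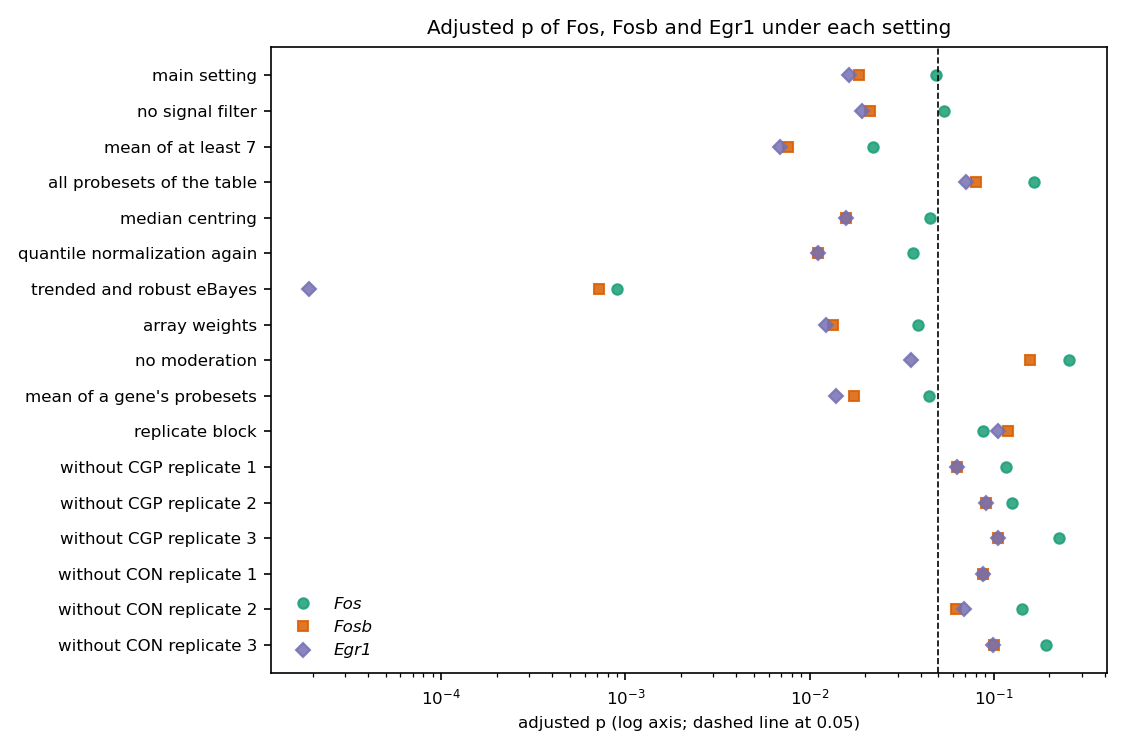
Adjusted p of Fos, Fosb and Egr1 (log axis) under the main setting and each of the 16 alternatives, with the threshold of 0.05 dashed. All 3 genes lie left of the line in the main setting and right of it whenever 1 array is left out, where the adjusted p runs from 0.0624 to 0.227.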

How the data were processed

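The authors deposited 1 table of log2 RMA signals for 28471 probesets on 6 arrays, and their processing notes name RMA and Partek without a version. Values were used as deposited. RMA normalizes across arrays and compresses changes of dim probesets, and array signals of different genes are not comparable. Probesets were named from the platform annotation, which gave 1 gene for 18690 and several for 1163. Those with 1 gene and a mean of at least 6 over the arrays, 18239, were tested. Of a gene's probesets, the one with the highest mean was used. CGP was compared with CON by lmFit and eBayes in limma 3.58.1 (R 4.3.3), with no covariate. The code was also run on simulated arrays with independent noise. Those arrays hold no pooling and no shared array effects, so they do not test the calls under this design. Array depth does not apply, and 3 arrays per group limit the precision.

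The members and gene lists were chosen with earlier results of these data known. The genes named are the 10 members, of each pathway list those that passed (at most 4) or otherwise the largest difference, of each marker list the largest difference and up to 2 that passed, and the 5 genes most like the members. Others (Arc, Bdnf, Srf, Creb1, Fosl1, Nab1, Nab2, Pdyn, Penk, Th, Cck, Pdk4, Mt1, Mt2, Per1, Gh, Tbx19, Fshb, Prl, Cga, Tshb, Nr4a2, Oxt, Hcrt, Pmch) were named after their values were seen. Promoter sequences came from RefSeq. The 16 alternatives changed the filter, annotation, normalization, variance model, probeset rule or block, or left out 1 array.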

Additional observations from a re-analysis of the deposited data

How the results depend on the processing

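Fos, Fosb and Egr1 were higher in CGP in each of the 16 alternatives, with differences of 0.33 to 0.43, 0.33 to 0.37 and 0.32 to 0.34, and they passed the adjusted p in 6, 7 and 8 of them. The 3 members higher in CGP became 0 with every probeset of the table above the same signal filter tested, named or not (27159), 1 with no moderation of the variance (Egr1), 0 with the replicate block and 0 with any 1 array left out (0 to 0 over the 6 arrays), where all other settings gave 2 or 3. Fos lost its call with no signal filter (adjusted p = 0.0534 in limma). No member was lower past the test in any alternative. Over all tested probesets, the 51 calls became 81 with a mean of at least 7, 4 with named and unnamed probesets, 249 with trended and robust eBayes, 77 with array weights, 6 with no moderation, 6 with the replicate block and 6 to 10 with 1 array left out. Leaving out an array or fitting the block leaves fewer residual degrees of freedom. The cause of the other shifts was not tested. Same-numbered arrays deviated together with correlations of 0.078, -0.18 and 0.11, so the numbers were not read as a pairing. Egr3, which passed in no setting, differed by 0.03, but by -0.0419 without CGP replicate 3 and -0.0189 without CON replicate 2, over a range of -0.0419 to 0.0955 with 1 array left out. For the other 9 members the sign held in all 16. Over the members and alternatives, a call was lost 27 times and none was gained, and over the pathway lists a count became lower 20 times and higher 9 times.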

Other observations

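Of 11 genes known to be induced by glucocorticoids, none passed the test, 10 had a lower mean in CGP and the median difference was -0.084. In 4 of them the CGP signals lay wholly below the CON signals, beside 9.95% of all tested probesets. Zbtb16, a transcription factor gene, was at 10.19 ± 0.029 in CGP and 10.43 ± 0.024 in CON (SD, n = 3 arrays each), a difference of -0.24 (limma, adjusted p = 0.0526). Pdk4, a kinase gene that limits glucose oxidation, was at 9.52 ± 0.054 in CGP and 9.70 ± 0.019 in CON (SD, n = 3 arrays each), a difference of -0.19 (limma, adjusted p = 0.171). Mt1 and Mt2, the metallothionein genes, differed by -0.0021 and 0.0072. Of 14 circadian clock genes, none passed, 9 had a higher mean in CGP and the median was 0.032. Cry1, a repressor of the clock, had the largest difference, 0.14 (limma, adjusted p = 0.580), and Per1, which is also activity-induced, was at 10.23 ± 0.016 in CGP and 10.11 ± 0.039 in CON (SD, n = 3 arrays each; limma, adjusted p = 0.323).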
